A study of Mus musculus with 6 samples.

Results

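The Sox genes encode transcription factors that bind DNA through an HMG box, and 10 of them were followed here in embryonic mouse cortex that lacks the active copy of Mest. They were picked by gene symbol in the platform's probe annotation, as the family members Sox1, Sox2, Sox3, Sox4, Sox5, Sox6, Sox8, Sox9, Sox10 and Sox11, and they account for 12 of 21766 probes and for 10 of the 12576 genes that could be tested. All 10 genes had enough values to enter the tests, with 3 probes for Sox11 and 1 for each of the others. The comparison asked of the family was between members typical of dividing neural progenitors (Sox1, Sox2, Sox3 and Sox9) and members typical of young neurons (Sox4 and Sox11).

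In the embryonic cortex, Sox1, Sox2 and Sox3, the SoxB1 group, keep neuroepithelial and radial glial cells in a dividing state. Sox4 and Sox11, the SoxC group, become abundant as cells leave the cycle and help to switch on neuronal genes. Sox9 and Sox8, of the SoxE group, belong to radial glia and later to astrocytes, while their relative Sox10 is a factor of neural crest and of oligodendrocyte lineage cells. Sox5 and Sox6, the SoxD group, lack an activation domain of their own and take part in the timing of projection neuron and interneuron production.

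The mutants were embryos at stage E12.5 that had inherited, from the father, a LacZ-targeted Mest allele without exons 3 to 8. Mest, also called Peg1, is imprinted and active on the paternal copy, and the mothers were wild type. Cortex RNA of 6 single mutants (numbers 3, 5, 6, 1, 4 and 7) was set against cortex RNA of single wild-type embryos on 6 two-colour arrays, with the mutant in Cy5 for mutants 3, 5 and 6 and in Cy3 for mutants 1, 4 and 7. Mutants 3 and 1 were read as sharing wild type 2, mutants 5 and 4 shared wild type 8, and mutants 6 and 7 shared wild type 9. The label of the array of mutant 3 says wild type 1, a number absent from the series' design text. Each number given for a gene is log2 of mutant over wild type after the median of its array was set to 0, so that 0 means no difference relative to the typical probe. No signal level was used here, so the abundance of one Sox transcript cannot be set against that of another. In whole cortex, fewer cells of a type and less RNA per cell cannot be told apart. Whether an oligonucleotide also binds a related Sox transcript was not tested.

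The targeted gene gave ratios between -2.07 and -1.36 over the 6 arrays (exact sign-flip permutation test, two-sided p = 0.0313, the smallest that 6 arrays allow, while 3 independent wild types would allow 0.25). Mest lay below 0 in each mutant, but the direction of the deposited ratios was itself read from Mest, so this is no independent check. The arrays held values for 75.4% to 89.9% of their probes. Of the values expected for the Sox probes, 2 were missing, both on the array of mutant 5, which had the fewest values of the 6. Cortical identity genes in these samples (Emx1, Emx2, Lhx2, Pax6, Tbr1, Eomes and Neurog2, 7 tested of 8 listed) averaged -0.0098 ± 0.11 (SD, n = 6 arrays), which compares mutant with wild type and says nothing of their level. Genes of other cells that a dissected cortex can hold averaged 0.013 ± 0.20 for mesenchyme, meninges and cartilage (7 tested), -0.088 ± 0.16 for endothelium (6), -0.11 ± 0.58 for ventral telencephalon (6) and -0.31 ± 0.14 for red blood cells (4, below 0 on each array). Of these 23 genes 0 passed the adjusted threshold in limma. At an unadjusted p under 0.05 stood 3 of the 4 red blood cell genes, all below 0 (the globins Hbb-bh1 and Hbb-y and the haem synthesis gene Alas2, limma unadjusted p = 0.014, 0.032 and 0.039), and 0 genes of the other 3 lists, against 3.98% of all genes. Their part in the Sox ratios was not tested.

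The Sox family showed no difference between mutant and wild-type cortex that passed the test. Of the 10 members 0 had an adjusted p under 0.05 in limma, and 0 had an unadjusted p under 0.05, with 5 fitted ratios above 0 (50.3% of all genes were) and 5 below. Over all genes tested 0% passed the adjusted threshold and 3.98% the unadjusted one, so a count of 0 in 10 genes is near the background. The same held probe by probe, with 0 of 12 Sox probes at an unadjusted p under 0.05 against 3.93% of all probes. The members' median ratio was -0.017, against 0.0014 for all 12576 genes. Their median size, whatever the sign, was 0.10, against 0.13 for all genes. The smallest p of a member belonged to Sox10 (unadjusted 0.17, limma adjusted p = 0.90, above 0 on 4 of 6 arrays).

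The width of the intervals sets what these arrays leave room for. For 8 of the 10 members the 95% confidence interval of the fitted ratio lay within a 1.5-fold difference in either direction, which held for 56.4% of all genes. The exceptions were Sox3 and Sox6. The interval of Sox3 alone reached beyond 2-fold, while those of the other 9 members and of 74.7% of all genes did not. These intervals are not adjusted for the number of genes, and they hold relative to the array medians. Without that centring the median of all genes itself lay at 0.26, and the ratio of each of the 10 members moved up, to between 0.11 for Sox8 and 0.96 for Sox3.

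**Figure D1:**
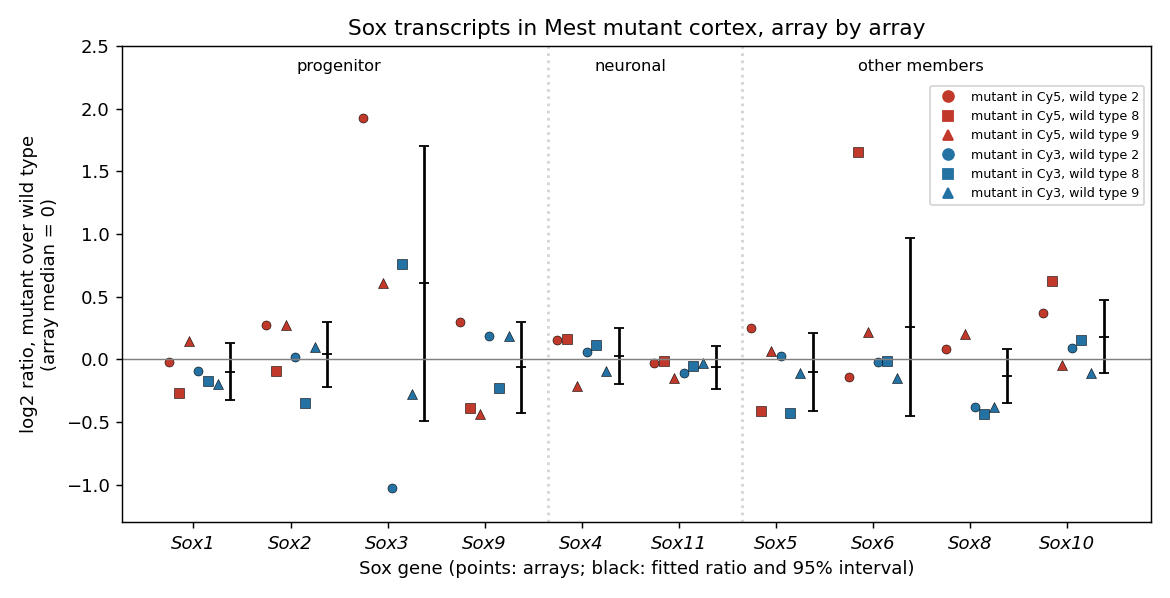
Log2 ratios of mutant over wild type for the 10 Sox genes (x axis), with 1 point per array on a linear axis of log2 units, coloured by the mutant's dye and shaped by the wild-type cortex, and in black the fitted ratio with its 95% interval. The points of Sox4 and Sox11 stay between -0.21 and 0.16, while Sox3 ranges from -1.03 to 1.92 and a lone point of Sox6 lies at 1.65. Sox11 points are means of 3 probes, and each other gene has 1 probe.

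Among the SoxB1 genes, Sox1, which marks neuroepithelial cells, had -0.02, -0.27 and 0.15 in mutants 3, 5 and 6 and -0.095, -0.17 and -0.20 in mutants 1, 4 and 7 (SD 0.15, n = 6). It was below 0 on 5 of 6 arrays, by less than 0.3 on each. The fitted ratio of Sox1 was -0.10 with a standard error of 0.090 (0.80-fold to 1.09-fold as a 95% interval, limma adjusted p = 0.90).

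Sox2, the factor most widely used as a label of neural stem and progenitor cells, had 0.28, -0.093 and 0.27 in mutants 3, 5 and 6 and 0.019, -0.35 and 0.10 in mutants 1, 4 and 7 (SD 0.24, n = 6). Both arrays with wild type 8 lay below the other 4 arrays, and those 4 lay above 0. The fitted Sox2 ratio was 0.038 with a standard error of 0.10 (0.86-fold to 1.23-fold, limma adjusted p = 0.95).

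Sox3, the X-linked member of the group, was the most variable Sox gene. It had 1.92 and 0.61 in mutants 3 and 6 and -1.03, 0.76 and -0.28 in mutants 1, 4 and 7, with no value for mutant 5 (SD 1.12, n = 5). The arrays of mutants 3 and 1, which were read as sharing a wild type, were its highest and its lowest. The fitted ratio of Sox3 was 0.61 with a standard error of 0.41, and its interval ran from 0.71-fold to 3.26-fold (limma adjusted p = 0.90, on 5 arrays). This fit takes the dye term into account. Fitted without that term the ratio was 0.39, and the plain mean of the 5 arrays was 0.40. The spread of Sox3 lay at the 83.1 percentile of all genes, against 11.5 for Sox1 and 31.1 for Sox2. The embryos of an array often differed in the X-inactivation transcript Xist, which had 3.18, -0.36 and 1.21 in mutants 3, 5 and 6 and 0.41, -2.38 and 2.09 in mutants 1, 4 and 7. The Y-linked genes Eif2s3y, Uty and Kdm5d had fitted ratios of -0.35, -1.17 and -0.074 (standard errors 0.10, 0.65 and 0.21). Eif2s3y lay below 0 on 6 of 6 arrays, Uty on 5 of 6 and Kdm5d on 4 of 6. Xist and Sox3 shared their sign on 2 of 5 arrays, and the part of embryo sex in the Sox3 ratios was not tested.

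Sox9, a factor of neural stem cells and radial glia, had 0.29, -0.39 and -0.44 in mutants 3, 5 and 6 and 0.19, -0.23 and 0.19 in mutants 1, 4 and 7 (SD 0.32, n = 6). The arrays split evenly, 3 above and 3 below 0. The fitted Sox9 ratio was -0.064 with a standard error of 0.15 (0.74-fold to 1.23-fold, limma adjusted p = 0.94).

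Of the neuronal members, Sox4 had 0.15, 0.16 and -0.21 in mutants 3, 5 and 6 and 0.057, 0.11 and -0.095 in mutants 1, 4 and 7 (SD 0.15, n = 6). The 2 arrays with wild type 9 were the lowest and the only ones below 0. The fitted Sox4 ratio was 0.030 with a standard error of 0.089 (0.87-fold to 1.19-fold, limma adjusted p = 0.95).

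Sox11 had 3 probes, which gave separate readings of its transcript. The probe for accession NM_009234 had -0.26, 0.11 and 0.11 in mutants 3, 5 and 6 and -0.25, -0.041 and -0.16 in mutants 1, 4 and 7. The probe for AK018080 had 0.028, 0.22 and -0.24 in mutants 3, 5 and 6 and -0.20, 0.043 and -0.34 in mutants 1, 4 and 7. The probe for AK012306 had 0.14, -0.36 and -0.33 in mutants 3, 5 and 6 and 0.13, -0.16 and 0.40 in mutants 1, 4 and 7. There was no array on which the 3 Sox11 probes agreed in sign, so the probes differed from one another by more than their mean differed from 0.

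The mean of the Sox11 probes had -0.030, -0.012 and -0.15 in mutants 3, 5 and 6 and -0.11, -0.053 and -0.032 in mutants 1, 4 and 7 (SD 0.054, n = 6). It was below 0 on 6 of 6 arrays, the one member with the same sign throughout, which held for 5.69% of all genes, 3.31% on the side below 0. Those shares include genes with fewer than 6 values. Without centring the fitted Sox11 ratio was 0.19, so its direction holds only relative to the array medians. With centring the fitted ratio of Sox11 was -0.064 with a standard error of 0.069 (0.85-fold to 1.08-fold, limma adjusted p = 0.90). That standard error is drawn in part from all genes, since limma moderates the spread of each gene. The SD of single Sox11 probes was 0.17 to 0.30, above that of their mean, and the fitted ratios of the probes for NM_009234, AK018080 and AK012306 were -0.082, -0.082 and -0.029.

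**Figure D2:**
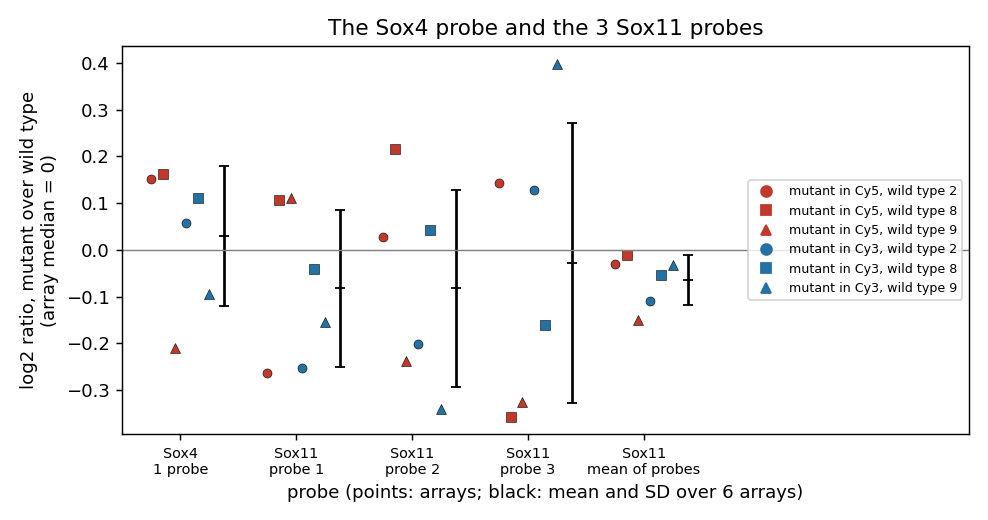
Log2 ratios of mutant over wild type (y axis, linear in log2 units) of the Sox4 probe, of the 3 Sox11 probes in the order NM_009234, AK018080 and AK012306, and of their mean (x axis), with 1 point per array and the mean and SD over 6 arrays in black. Single Sox11 probes spread over both sides of 0, with SDs of 0.17 to 0.30, and the mean of the 3 has an SD of 0.054.

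Between the sets, progenitor Sox genes did not differ from neuronal ones beyond the spread over arrays. The mean over Sox1, Sox2, Sox3 and Sox9 was 0.62, -0.25 and 0.15 in mutants 3, 5 and 6 and -0.23, 0.0038 and -0.047 in mutants 1, 4 and 7. On the array of mutant 5, where Sox3 has no value, it is the mean of the other 3 genes. The mean over Sox4 and Sox11 was 0.061, 0.076 and -0.18 in mutants 3, 5 and 6 and -0.026, 0.030 and -0.064 in mutants 1, 4 and 7. The progenitor set averaged 0.041 ± 0.32 and the neuronal set -0.017 ± 0.096 (SD, n = 6 arrays each), with each set above 0 on 3 of 6 arrays.

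The difference, progenitor minus neuronal, was 0.56, -0.33 and 0.33 in mutants 3, 5 and 6 and -0.20, -0.026 and 0.016 in mutants 1, 4 and 7, a mean of 0.058 ± 0.33 (SD, n = 6 arrays, with 3 progenitor genes for mutant 5 and 4 for each of the others). It was above 0 on 3 of 6 arrays. Averaged over the 2 arrays that share a wild type, the difference was 0.18 for wild type 2, -0.18 for wild type 8 and 0.17 for wild type 9. Such an average cancels an additive dye effect for wild types 2 and 9. For wild type 8 that of Sox3 remains, since Sox3 has a value for mutant 4 only. With Sox3 left out, the averages were 0.092 for wild type 2, -0.30 for wild type 8 and 0.13 for wild type 9. No p is given for this difference, since the genes in it were named with earlier results of these data known.

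Sox3 set much of the progenitor spread. Without it, so that the same 3 genes stood for the set on each array, the progenitor mean was -0.042 ± 0.17 and the difference -0.025 ± 0.22 (SD, n = 6 arrays), above 0 on 4 of 6 arrays. The sign of the mean difference thus turned with 1 gene. It was also below 0 with the array of mutant 3 left out (-0.054 ± 0.23) or that of mutant 6 left out (-0.065 ± 0.22, SD, n = 5 arrays each). In both cases Sox3 was left with too few values and dropped out of the set as well. These values therefore do not show what leaving out the array alone does.

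Gene by gene, the 8 differences between a progenitor and a neuronal member averaged between -0.13 for Sox1 minus Sox4 and 0.47 for Sox3 minus Sox11. Sox1 minus Sox4 was above 0 on 1 of 6 arrays (SD 0.27). Sox2 minus Sox11 averaged 0.10 (SD 0.26, above 0 on 4 of 6 arrays), and Sox9 minus Sox4 averaged -0.094 (SD 0.33, above 0 on 3 of 6 arrays). Each of these 8 mean differences was smaller than its SD over arrays.

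**Figure D3:**
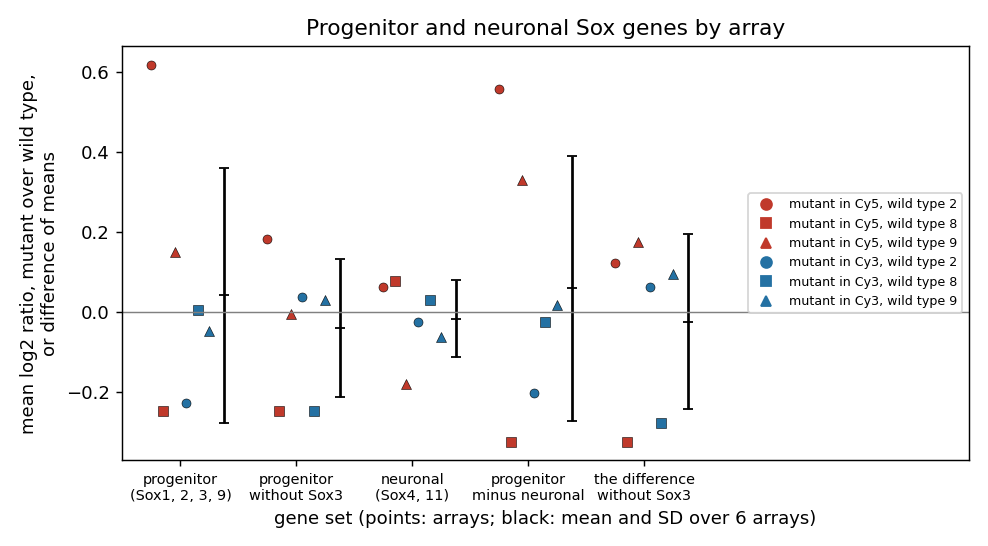
Mean log2 ratio (mutant over wild type) of the progenitor and neuronal Sox sets and their difference (x axis), in linear log2 units, with 1 point per array and the mean and SD over 6 arrays in black. The progenitor set, without Sox3 for mutant 5, reaches from -0.25 to 0.62, and much of its range goes when Sox3 is left out. The neuronal set lies between -0.18 and 0.076. Its Sox11 value is a mean of 3 probes, while each other gene has 1 probe, so the 2 ranges are not like for like.

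Of the SoxD genes, Sox5, which in later cortex controls the order in which deep-layer neurons appear, had 0.25, -0.41 and 0.066 in mutants 3, 5 and 6 and 0.024, -0.43 and -0.11 in mutants 1, 4 and 7 (SD 0.27, n = 6). As for Sox2, both arrays with wild type 8 lay below the other 4. The fitted Sox5 ratio was -0.10 with a standard error of 0.12 (0.75-fold to 1.15-fold, limma adjusted p = 0.90).

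Sox6, which acts in cortical progenitors and in interneurons, had -0.14, 1.65 and 0.22 in mutants 3, 5 and 6 and -0.023, -0.015 and -0.15 in mutants 1, 4 and 7 (SD 0.70, n = 6). The array of mutant 5 stood apart, and the other 5 lay within 0.22 of 0. The fitted ratio of Sox6 was 0.26 with a standard error of 0.28 (0.73-fold to 1.95-fold, limma adjusted p = 0.90), and without mutant 5 it was -0.012.

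Of the remaining SoxE genes, Sox8 was the member whose arrays fell apart by dye. It had 0.083 and 0.20 in mutants 3 and 6, labelled with Cy5, and -0.38, -0.44 and -0.38 in mutants 1, 4 and 7, labelled with Cy3, with no value for mutant 5 (SD 0.30, n = 5). The dye orientations of Sox8 did not overlap, as for 27.8% of all genes, and no other member had this pattern. Its dye coefficient was 0.27 (limma, unadjusted p = 0.012, adjusted p = 0.17), and an unadjusted p under 0.05 for the dye term occurred in 19.7% of all genes, so 1 of 10 members is not above the background. No member passed the adjusted threshold for the dye term, which 0.151% of genes passed. The dye coefficients of Sox3 (0.79, unadjusted p = 0.068) and Sox6 (0.32, unadjusted p = 0.19) were larger than that of Sox8, with arrays that overlapped between the orientations. The fitted genotype ratio of Sox8, which takes the dye term into account, was -0.13 with a standard error of 0.081 (0.79-fold to 1.06-fold, limma adjusted p = 0.90, on 5 arrays).

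Sox10 had 0.37, 0.62 and -0.043 in mutants 3, 5 and 6 and 0.091, 0.15 and -0.11 in mutants 1, 4 and 7 (SD 0.27, n = 6). The arrays with wild type 9 were the lowest of the 6 and the only ones below 0, as for Sox4. The fitted Sox10 ratio was 0.18 with a standard error of 0.11 (0.93-fold to 1.38-fold, limma adjusted p = 0.90).

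Since Sox10 belongs to cells that are rare or absent in cortex at this stage, 7 tested genes of neural crest, Schwann and oligodendrocyte lineage cells were set beside it. Their mean was 0.34, 0.45 and 0.18 in mutants 3, 5 and 6 and -0.16, -0.32 and -0.065 in mutants 1, 4 and 7, above 0 with the mutant in Cy5 and below 0 with it in Cy3. Pdgfra, a receptor of oligodendrocyte precursors and mesenchyme, had a fitted ratio of 0.29 and Erbb3, a receptor of Schwann cell precursors, 0.16 (limma adjusted p = 0.90 for each). Of the 7, 0 passed the adjusted threshold and 0 the unadjusted one. The part of such cells in the Sox10 ratios was not tested.

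The members were also read by the wild-type cortex that 2 arrays shared. Of the 8 members with values on all arrays, Sox2 and Sox5 had both arrays of wild type 8 below the other 4, and Sox4 and Sox10 had both arrays of wild type 9 below the other 4. Among the 10140 genes with 6 values, 9.42% had both arrays of wild type 8 below the other 4, 5.13% those of wild type 9 and 7.54% those of wild type 2, for which 0 members did. With 2 of 8 members for wild types 8 and 9 and so few genes, nothing is read from these shares. Averaged over both arrays of wild type 8, the ratios of these 8 members were -0.22 for Sox1, -0.22 for Sox2, -0.31 for Sox9, -0.42 for Sox5 and -0.032 for Sox11, against 0.14 for Sox4, 0.82 for Sox6 and 0.39 for Sox10, so that 5 lay below and 3 above 0. Over both arrays of wild type 2 they were -0.058, 0.15, 0.24, 0.14, -0.070, 0.10, -0.0805 and 0.23 in the same order. Over those of wild type 9 they were -0.024, 0.19, -0.13, -0.020, -0.091, -0.15, 0.033 and -0.0745. A ratio shared by 2 arrays of 1 wild type holds that embryo's own level as well as the genotype.

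**Figure D4:**
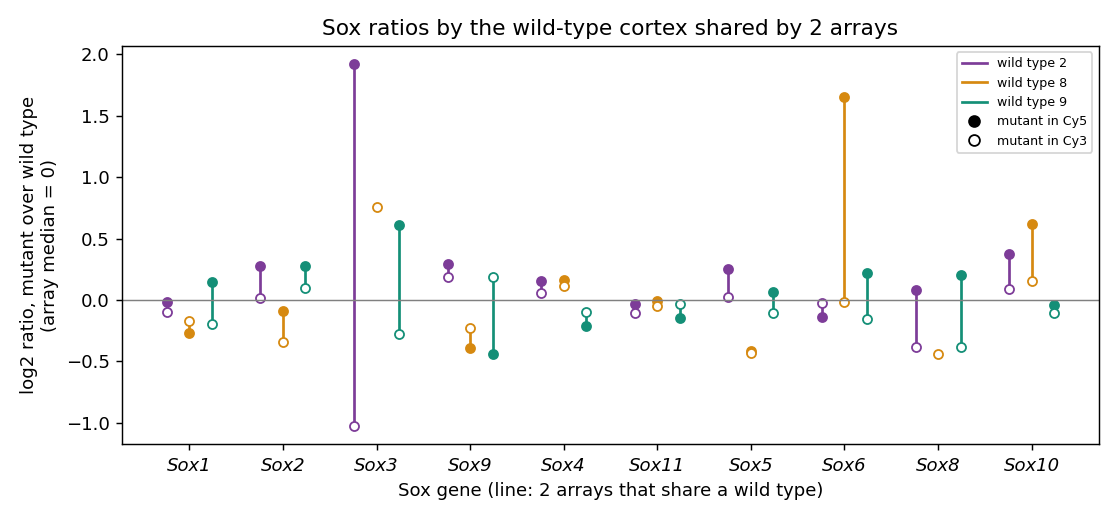
Log2 ratios of mutant over wild type (y axis, linear in log2 units) of the 10 Sox genes (x axis), with a line joining the 2 arrays that share a wild-type cortex, filled points for the mutant in Cy5 and open points for the mutant in Cy3. Both points of wild type 8 lie lowest for Sox2 and Sox5, and the longest lines are those of Sox3 for wild type 2 and Sox6 for wild type 8.

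The other Sox genes that could be tested (Sox7, Sox12, Sox13, Sox14, Sox15, Sox17 and Sox18) had fitted ratios between -0.0048 and 0.18, with 6 above and 1 below 0. Of these 7, 0 passed the adjusted or the unadjusted threshold in limma (lowest adjusted p = 0.90). Sox12, the remaining SoxC gene, lay at 0.032 with a standard error of 0.11, near Sox4 and Sox11. Fitted singly, its 2 probes lay at 0.023 and -0.022, the second with no value for mutant 4. Sox13, a SoxD gene with the smallest p among the 7 (unadjusted 0.37), lay at 0.069 with a standard error of 0.072. Sox17, a SoxF factor of endothelium and endoderm, had 1.96 in mutant 5 against -0.57 to 0.51 on the other arrays, so that the array of mutant 5 was highest for it as for Sox6. Sox14, of the SoxB2 group, was the gene below 0, at -0.0048.

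Genes that work with or downstream of the Sox factors gave no call either. Of 12 partners and targets of SoxB1 factors in progenitors, 8 lay above and 4 below 0 with a median of 0.040, and 0 passed at an adjusted or unadjusted p of 0.05. Msi1, an RNA-binding protein of neural stem cells, had a ratio of 0.20 (standard error 0.089) and was higher than 0 in 6 of 6 mutants, and Slc1a3, the radial glial glutamate transporter gene, one of 0.39 (standard error 0.25) (limma adjusted p = 0.90 for each). Of 10 SoxC targets and young-neuron genes, 2 lay above and 8 below 0 with a median of -0.024, and 0 passed either threshold. Map2, a microtubule protein of neuronal dendrites, had a ratio of -0.19 (standard error 0.098) and was lower than 0 in 6 of 6 mutants, and Tbr1, a factor of early-born cortical neurons, one of -0.13 (limma adjusted p = 0.90 for each). Msi1 and Map2 had the smallest p of their lists. Each was the only gene of its list with 1 sign on every array. That held for 5.69% of all genes, those with fewer than 6 values included. The SoxB1 list averaged 0.063 ± 0.076 and the SoxC list -0.031 ± 0.32 (SD, n = 6 arrays), the latter from -0.46 to 0.48. Of 5 deep-layer and related genes set beside the SoxD members, 0 passed. Nfia, a factor of gliogenesis, lay at 0.29 (standard error 0.12) and was above 0 in 6 of 6 mutants. Tle4, a corepressor of deep-layer neurons, lay at -0.55 (standard error 0.46), with single arrays from -2.35 in mutant 3 to 0.44 in mutant 1.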

How the data were processed

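Each of the 6 two-colour oligonucleotide arrays had a column of deposited log2 ratios. RNA came from a Trizol extraction, per the labels. For scanner, spot filters, normalization and genome build, the labels state nothing. Scale and direction are not stated either, and Cy5 over Cy3 in log2 units was inferred from the values, the dye labels and Mest. Array medians as deposited were 0.26, 0.76 and 0.19 for mutants 3, 5 and 6 and -0.0040, -0.59 and 0.28 for mutants 1, 4 and 7.

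Values at the ceiling (16.61, 588 values outside the control spots) were taken as missing, and 232 Gapdh control spots were left out. Ratios were turned to mutant over wild type and centred on each array's median. Probes with values on at least 4 arrays, 2 per dye orientation (17476), were fitted in limma 3.58.1 (R 4.3.3, lmFit and eBayes) with a dye term and the shared wild type as a random block (correlation 0.25, and 0.27 for genes), with Benjamini-Hochberg adjustment over all probes or genes. Genes took the mean of their probes. The wild-type label of mutant 3 was read as wild type 2. Symbols came from the platform annotation. The fit was tested on simulated data. Members and lists were chosen with earlier results of these data known. Named were each Sox member, the other Sox genes by range, up to 2 genes of smallest p per list, and Mest. Sox17, Sox12, Xist, the Y-linked genes and Alas2 were named after their values were seen. Labels give single embryos as separate samples. The number of arrays limits precision. Alternatives covered the block, dye term, centring, missing values, probes and arrays left out. Some genes of the lists are not reported here.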

Additional observations from a re-analysis of the deposited data

Results flagged for a closer look

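The Sox6 ratio in mutant 5 stood apart from the other 5 arrays, at 1.65 against -0.15 to 0.22, with a gap of 0.79 of the whole range, above Dixon's critical value for 6 samples. A gap that just reaches the critical value or exceeds it arises by chance in about 1 in 20 groups. That rate is not the rate of a gap as wide as 0.79, which was not calculated. The rule was applied to 16 sets of values (10 genes, 3 Sox11 probes, both sets and their difference), of which 1 was set apart. The array of mutant 5 had the fewest values of the 6 (75.4% of probes), and its part in the Sox6 value was not tested.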

How the results depend on the processing

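No Sox member was called for genotype (limma, adjusted p) under any of the 22 alternatives run on the calls, and none for the dye term in the 19 that had one; the lowest adjusted p of a member was 0.31. At an unadjusted p of 0.05 the count of Sox probes was 0 for the reported values and 1 in 3 alternatives: Sox2 with arrays centred on Gapdh control spots, Sox8 with the mutant in Cy3 only, and Sox10 without wild type 9. Fitted by gene, both Sox2 and Sox10 stood under it on Gapdh. Over all probes the unadjusted count was 687, against 223 without centring and 2498 centred on Gapdh. Of 210 recomputed member ratios, 184 kept their direction and 26 did not. Without centring, Sox1, Sox9, Sox11, Sox5 and Sox8 lay at 0.15, 0.19, 0.19, 0.15 and 0.11, and centred on Gapdh at 0.16, 0.19, 0.19, 0.16 and 0.090, where the median gene lay at 0.26 in each. With the mutant in Cy3 only, Sox2, Sox3, Sox9 and Sox6 lay at -0.075, -0.18, 0.048 and -0.063, and in Cy5 only Sox8 lay at 0.14. Leaving out both arrays of 1 wild type was chosen after seeing the data. It gave Sox2 -0.016 and Sox4 -0.0074 without wild type 2, Sox9 0.058, Sox4 -0.024, Sox5 0.058 and Sox6 -0.024 without wild type 8, and Sox2 -0.036 without wild type 9. With 1 array left out, Sox9 ranged from -0.17 to 0.019, Sox4 from -0.0023 to 0.075 and Sox6 from -0.012 to 0.44. With no change of sign, Sox1 ranged from -0.15 to -0.045 and Sox5 from -0.16 to -0.0064 (each nearest 0 without mutant 5), Sox10 from 0.10 (without mutant 5) to 0.25, Sox3 from 0.31 (without mutant 4) to 0.85, Sox2 from 0.0092 to 0.11, Sox11 from -0.083 to -0.039 and Sox8 from -0.14 to -0.12. Sox3 and Sox8 could not be fitted without mutants 3 or 6, nor without wild types 2 or 9. The progenitor minus neuronal difference ranged from -0.10 to 0.19 over 23 alternatives and moved by less than its SD in each, while the neuronal mean moved by more, to 0.24, without centring and on Gapdh. The difference uses no fit, and a shift of a whole array cancels in it. Changes of block, dye term, eBayes, ceiling values or centring constant therefore could not move it from 0.058, and they say nothing of its stability. The sign of that difference turned without Sox3 (-0.025, chosen after seeing the data). The value was the same with values on all 6 arrays, where Sox3 drops out. With the mutant in Cy3 only, the sign turned as well (-0.071). The difference was also below 0 without wild types 2 or 9 (-0.084 and -0.10) and without mutants 3 or 6. In each of these last runs Sox3 had too few values and dropped out, so they are not separate from its removal. The causes were not tested, except that a shift of all genes follows from the centring itself. On 4 arrays the block correlation could not be estimated and that of all arrays was used.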

Other observations

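The probes annotated as Sox5os3 and Sox6os, transcripts from the opposite strand at Sox5 and Sox6, are no members of the family and gave values of another kind. As deposited, before ratios were turned, Sox5os3 had -1.71 for mutant 3, -5.13 for mutant 5, -1.44 for mutant 1 and -3.09 for mutant 7. Sox6os had -2.20 and -3.04 for mutants 3 and 6 and -1.96 for mutant 1. Each was below 0 on every array with a value, whichever dye the mutant carried, so that the ratio of mutant over wild type turned its sign with the dye. Sox5os3 had a genotype ratio of -0.82 with a standard error of 0.94 and a dye coefficient of -2.96 (limma, unadjusted p = 0.031, adjusted p = 0.21 for the dye term, on 4 arrays), and Sox6os had too few values to be tested.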
